A study of Mus musculus with 16 samples.

Results

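Bone morphogenetic proteins (BMPs), activins and the secreted proteins that bind them were followed through 10 genes, chosen by symbol from the 31274 features of a mouse uterus RNA-seq table: the BMP ligands Bmp2, Bmp4 and Bmp7, the inhibin and activin subunits Inha, Inhba and Inhbb, the activin-binding proteins Fst and Fstl3, and the BMP antagonists Nog and Grem1. All 10 symbols were in the table. The study used 4 groups of 4 whole uteri from ovariectomized mice, 16 libraries in all, described in the labels as biological replicates. The PRB strain (ePRBoe) carried the alleles Pgrcre and PgrBLsL/+, and the PRA strain (ePRAoe) carried Pgrcre and PgrALsL/+, so that Cre expressed from the Pgr locus switched on a transgene for isoform B or isoform A of the progesterone receptor. Females were housed until 8 weeks of age, and 2 weeks after ovariectomy each strain received progesterone (P4) or its oil vehicle for 6 h. The groups are called PRB P4, PRB oil, PRA P4 and PRA oil below.

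Pgr-Cre acts wherever Pgr is expressed, both strains overexpress an isoform, and mice with neither transgene were not analysed here, so an effect of overexpression itself cannot be told apart from what the strains share. The labels give all PRA libraries positions in row A and all PRB libraries positions in row B, so position and strain cannot be told apart. A treatment protocol in the labels describes mated females dissected on day 4 of pregnancy, which differs from the ovariectomy and 6 h treatment given by the titles. The groups here follow the titles.

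BMPs and activins are dimeric ligands of the TGF-beta family that act through pairs of serine/threonine kinase receptors and SMAD proteins. Activins are dimers of the beta subunits encoded by Inhba and Inhbb, and inhibins pair a beta subunit with the alpha subunit encoded by Inha and antagonize activins. Follistatin, encoded by Fst, and the related protein encoded by Fstl3 bind activins and block their access to receptors, while noggin and gremlin do the same for BMPs. In the mouse uterus, BMP and activin signalling takes part in implantation and in decidualization, the change of stromal cells that follows it.

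Levels are given in FPKM, fragments normalized to transcript length and library depth, and means with the SD of 4 libraries. Differences are on the log2(FPKM + 1) scale with their standard error (SE), and the verbs rose and fell are kept for genes whose limma p, adjusted over the 15408 features that averaged 1 FPKM or more, was under 0.05. Low values of the table implied 53.1 M to 66.8 M fragments per library. Of the 10 genes 8 passed the filter, each with a mean above 1 FPKM in all 4 groups, and Inhba and Grem1 did not. PRB P4 replicate 3 stood apart from the other libraries of its group on the second principal component, and results that rest on it are given without it. In whole uterus, fewer cells of a type and less RNA per cell cannot be told apart.

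Uterine identity genes were present in every library, with Pgr between 56.8 and 126 FPKM, Esr1 between 40.9 and 90.1 and Hoxa10 between 110 and 225. Pgr averaged 112 ± 22.3 FPKM in PRB P4 and 83.5 ± 4.49 FPKM in PRB oil, with 73.9 ± 1.80 FPKM in PRA P4 and 64.9 ± 5.52 FPKM in PRA oil (SD, n = 4). Expression of 8 epithelial markers summed to between 1264 and 1539 FPKM in PRB P4 and between 849.8 and 910.3 in PRB oil, and to between 989.7 and 1247 in PRA P4 and between 809 and 923 in PRA oil. The sum over 7 stromal markers lay between 677 and 717 FPKM in PRB P4 and between 999 and 1099.6 in PRB oil, and between 594 and 755 in PRA P4 and between 892 and 1018 in PRA oil. Of these markers 3 epithelial genes rose and 1 fell in PRB, against 3 and 3 in PRA, and 2 stromal genes rose and 3 fell in PRB, against 3 and 3 in PRA. The epithelial sum was higher and the stromal sum lower with P4, but single genes weighed heavily in both. The epithelial gene Cldn3 averaged 589 FPKM in PRB P4 and 179 in PRB oil, with 379 in PRA P4 and 158 in PRA oil. The stromal gene Dcn averaged 336 FPKM in PRB P4 and 608 in PRB oil, with 290 in PRA P4 and 573 in PRA oil. Lum was also lower with P4 in both strains, while Hand2 and Vcan were higher. The part of these markers in the results below was not tested.

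Progesterone changed most of the measured genes of the group in both strains, but so it did across the table. In PRB, 4 of the 8 tested genes rose and 2 fell, where 69.1% of all tested features were called, 36.2% higher and 32.9% lower. In PRA, 4 rose and 3 fell, where 69.8% of features were called, 36.6% higher and 33.2% lower. P4 and oil libraries did not overlap for 6 of the 8 in PRB and 6 in PRA, where 61.0% and 66.2% of features had no overlap. Fst, Fstl3 and Nog rose and Inha and Inhbb fell in both strains, and Bmp4 was the only tested member called in opposite directions, since it rose in PRB and fell in PRA. The median log2 difference of the 8 genes was 0.56 in PRB and 0.26 in PRA, beside 0.00 and 0.01 over all tested features.

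**Figure D1:**
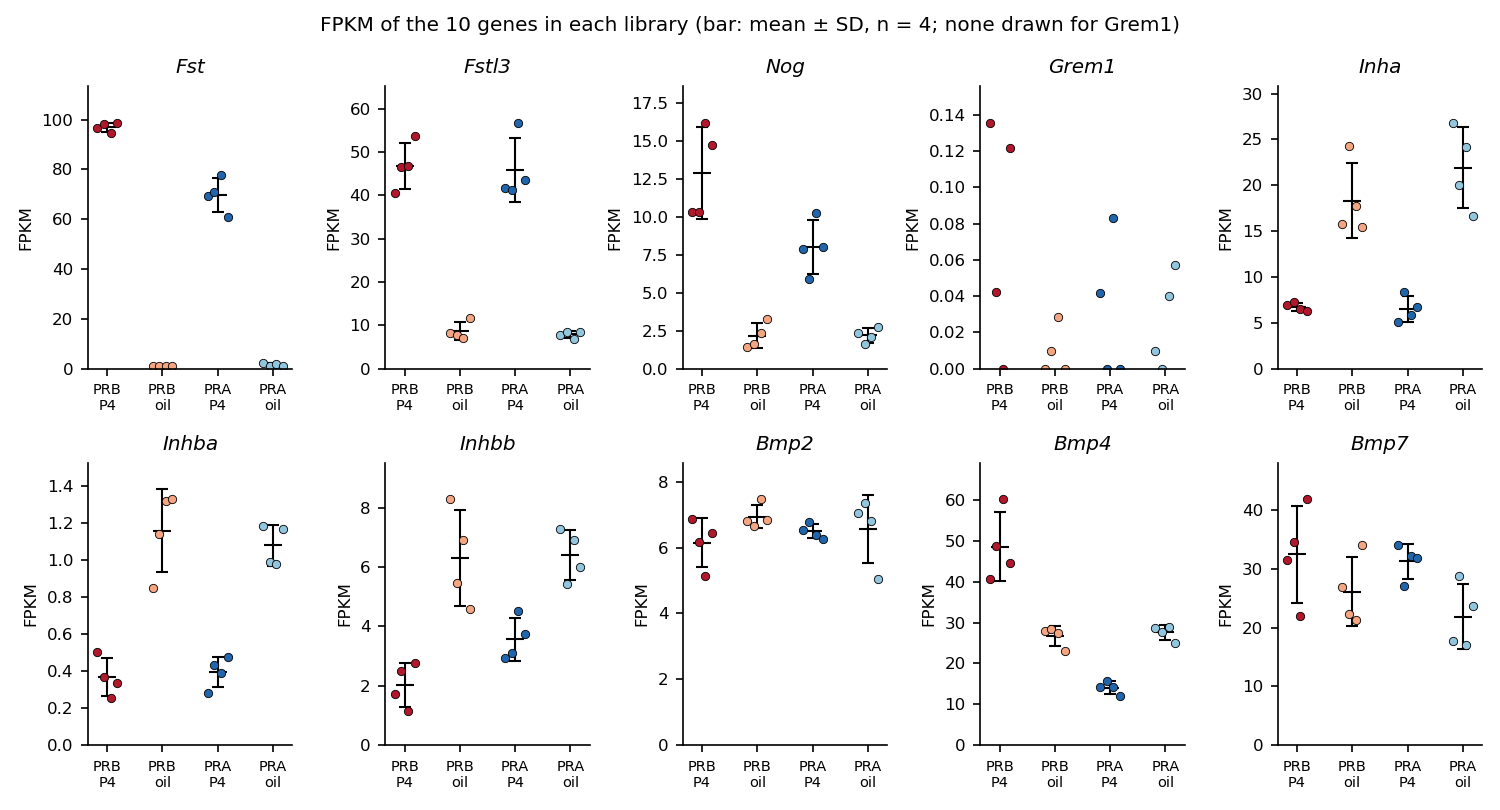
FPKM of each of the 10 genes in each library, by group (points are libraries, bars show mean ± SD, n = 4, and none is drawn for Grem1). In the Bmp4 panel the PRB P4 libraries sit between 40.6 and 60.2 FPKM, above all others, and the PRA P4 libraries between 11.9 and 15.8, below all others.

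Bmp4, which encodes a BMP ligand, responded to P4 in opposite directions. Its level was 40.6, 48.7, 60.2 and 44.6 FPKM in PRB P4, against 27.9, 28.4, 27.3 and 22.9 in PRB oil. All 4 P4 libraries of PRB lay above all 4 oil libraries. In the other strain it was 14.1, 15.8, 14.2 and 11.9 FPKM in PRA P4, against 28.7, 27.7, 28.9 and 24.9 in PRA oil, so that there all P4 libraries lay below all oil libraries. Bmp4 averaged 48.5 ± 8.44 FPKM in PRB P4 and 26.6 ± 2.51 in PRB oil, a ratio of means of 1.82 and a log2 difference of 0.83 (SE 0.11, limma, adjusted p = 9.27e-06). It averaged 14.0 ± 1.60 FPKM in PRA P4 and 27.6 ± 1.87 in PRA oil, a ratio of 0.508 and a log2 difference of -0.93 (SE 0.11, adjusted p = 2.81e-06). The P4 response in PRB exceeded that in PRA by 1.76 (SE 0.16, adjusted p = 0.000189). None of the 15408 features had a lower adjusted p in that contrast, although the value was tied, and 2.28% were called. By the size of the difference, 122 is the rank of Bmp4. Across the table, 42 features (0.273%) were called in opposite directions in the strains, 21 of them (0.136%) higher with P4 in PRB and lower in PRA.

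With oil, the log2 difference of Bmp4 between PRB and PRA was -0.05 (SE 0.11, adjusted p = 1) and the libraries of the strains overlapped. With P4 the PRB level exceeded the PRA level by 1.71 (SE 0.11, adjusted p = 1.26e-06), a 3.46-fold ratio of means with no overlap between groups. Without PRB P4 replicate 3, which had the highest Bmp4 value, the P4 response in PRB was 0.72, the difference between strains with P4 was 1.61 and the difference of responses was 1.66. The difference of responses stayed between 1.64 and 1.84 over 26 alternative analyses and was called in each.

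Bmp7, which encodes another BMP ligand, was measured at 31.5, 34.6, 22.0 and 41.8 FPKM in PRB P4, against 26.9, 22.3, 21.3 and 34.1 in PRB oil. Its values in the other strain were 34.0, 27.1, 32.2 and 31.8 FPKM in PRA P4, against 17.7, 28.9, 17.1 and 23.7 in PRA oil. The groups overlapped in both strains. Bmp7 rose in PRA by 0.52 (SE 0.20, adjusted p = 0.0284), but 6 of 26 alternatives lost that call, at an adjusted p of at most 0.0899. The PRB value of 0.29 (SE 0.20, adjusted p = 0.205) was not called, and without PRB P4 replicate 3, the lowest of its group, it was 0.46 (adjusted p = 0.0393).

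Bmp2, a ligand that stromal cells need for decidualization in the mouse, stayed within a narrow range. It averaged 6.15 ± 0.742 FPKM in PRB P4 and 6.94 ± 0.360 in PRB oil, with a log2 difference of -0.16 (SE 0.10, adjusted p = 0.16). It averaged 6.49 ± 0.218 FPKM in PRA P4 and 6.56 ± 1.04 in PRA oil, with a log2 difference of -0.00 (adjusted p = 0.989). The groups overlapped in both strains, and Bmp2 was not called in any contrast. The sum of Bmp2, Bmp4 and Bmp7 was 87.1 ± 5.93 FPKM in PRB P4 and 59.7 ± 3.67 in PRB oil, with 51.8 ± 2.40 FPKM in PRA P4 and 56.0 ± 5.32 in PRA oil.

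Transcripts for inhibin and activin subunits were lower with P4 in both strains. Inha, the alpha subunit found only in inhibins, was measured at 6.98, 7.25, 6.48 and 6.29 FPKM in PRB P4, against 15.7, 24.3, 17.7 and 15.5 in PRB oil. The PRA uteri gave 5.09, 8.40, 5.87 and 6.67 FPKM in PRA P4, against 26.8, 20.1, 24.2 and 16.7 in PRA oil. No P4 library reached an oil library of its strain. Inha fell by 1.30 on the log2 scale in PRB (SE 0.16, adjusted p = 5.17e-06) and by 1.61 in PRA (SE 0.16, adjusted p = 5.56e-07), and the difference of responses of 0.31 (SE 0.23, adjusted p = 0.539) was not called.

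Because Inha is best known from the ovary, 8 granulosa and theca markers were examined. Fshr was listed at 0 in all 16 libraries and Cyp19a1 did not exceed 0.0139 FPKM, so these 2 markers of granulosa cells were at or near 0. Amh, another granulosa marker, was present in every library at 0.551 to 2.04 FPKM. The sum of all 8 lay between 29.5 and 38.2 FPKM in PRB P4 and between 42.8 and 69.3 in PRB oil, and between 29.9 and 40.5 in PRA P4 and between 43.3 and 55.4 in PRA oil. Most of it was Foxl2, a transcription factor that the uterus also expresses, at 28.5 to 68.6 FPKM. Foxl2 fell by 0.84 in PRB and by 0.57 in PRA. The part of these markers in the Inha result was not tested.

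Inhbb, the subunit of activin B, was measured at 1.70, 2.51, 1.14 and 2.77 FPKM in PRB P4, against 8.28, 5.45, 6.89 and 4.58 in PRB oil. In the PRA strain it stood at 2.92, 3.09, 4.52 and 3.73 FPKM in PRA P4, against 7.27, 5.41, 6.90 and 5.99 in PRA oil. The groups did not overlap in either strain. Inhbb fell by 1.28 in PRB (SE 0.19, adjusted p = 2.61e-05) and by 0.70 in PRA (SE 0.19, adjusted p = 0.00399). With P4 it was lower in PRB than in PRA, with a log2 difference of -0.61 (SE 0.19, adjusted p = 0.04), and the difference of responses was -0.58 (SE 0.27, adjusted p = 0.298). Of the 25 alternatives that gave a value, 10 lost the call between strains, the highest adjusted p being 0.135. Without PRB P4 replicate 3 it was -0.46 (adjusted p = 0.0926).

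Inhba, the subunit of activin A, averaged 0.750 FPKM over all libraries and was not tested with the other features. It was measured at 0.504, 0.366, 0.257 and 0.336 FPKM in PRB P4, against 0.850, 1.14, 1.32 and 1.33 in PRB oil. Its values in the other strain were 0.282, 0.430, 0.389 and 0.477 FPKM in PRA P4, against 1.18, 0.988, 0.977 and 1.17 in PRA oil. P4 and oil libraries did not overlap in either strain, and an exact two-sided permutation test gave p = 0.0286 in each strain, the smallest that 4 against 4 libraries allow. Adjusted over the 8 such tests this became 0.114. With p already at its smallest in both strains, that value could be lower only if other tests also reached it, so it decides nothing about Inhba. In the fit without a filter, in which 53.1% of features were called in PRB and 53.4% in PRA, the log2 difference was -0.66 in PRB (adjusted p = 4.85e-06) and -0.58 in PRA (adjusted p = 1.72e-05).

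The activin-binding proteins were the members with the widest range. Fst was measured at 96.5, 98.1, 94.4 and 98.7 FPKM in PRB P4, against 1.00, 1.17, 1.13 and 1.09 in PRB oil. The PRA uteri gave 69.3, 70.7, 77.8 and 61.1 FPKM in PRA P4, against 2.14, 0.900, 1.83 and 1.08 in PRA oil. Every P4 library was far above every oil library, and the PRB P4 libraries were all above the PRA P4 libraries. Ratios of means were 88.4 in PRB and 46.9 in PRA, and Fst rose by 5.55 in PRB (SE 0.13, adjusted p = 1.01e-12) and by 4.86 in PRA (SE 0.13, adjusted p = 4.91e-12).

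With P4, Fst averaged 96.9 ± 1.90 FPKM in PRB and 69.7 ± 6.86 in PRA, a ratio of 1.39 and a log2 difference of 0.47 (SE 0.13, adjusted p = 0.0211). A pseudocount of 0.1 lost that call, as did leaving out PRA P4 replicate 4, the highest adjusted p being 0.101. The responses differed by 0.69 (SE 0.18, adjusted p = 0.0602), which was not called, and without PRA oil replicate 2 or PRA oil replicate 4 it was. Over all alternatives its adjusted p lay between 0.0225 and 0.138.

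Fstl3, a follistatin-like protein that binds activins, was measured at 40.6, 46.4, 46.8 and 53.6 FPKM in PRB P4, against 8.10, 7.72, 7.14 and 11.6 in PRB oil. In the PRA strain it stood at 41.8, 41.2, 56.7 and 43.6 FPKM in PRA P4, against 7.84, 8.38, 6.84 and 8.48 in PRA oil. P4 and oil libraries were fully separated in both strains, while the P4 libraries of the strains overlapped. Fstl3 rose by 2.33 in PRB (SE 0.14, adjusted p = 2.25e-09) and by 2.39 in PRA (SE 0.14, adjusted p = 1.90e-09), with ratios of means of 5.42 and 5.81. The difference of responses was -0.06 (SE 0.19, adjusted p = 0.907).

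Nog, which encodes the BMP antagonist noggin, was measured at 10.3, 10.3, 16.2 and 14.7 FPKM in PRB P4, against 1.38, 1.64, 2.34 and 3.26 in PRB oil. Its values in the other strain were 7.86, 5.88, 10.2 and 7.98 FPKM in PRA P4, against 2.34, 1.59, 2.09 and 2.76 in PRA oil. P4 and oil libraries were fully separated in both strains, and the PRB P4 libraries were just above the PRA P4 libraries. Nog rose by 2.15 in PRB (SE 0.20, adjusted p = 2.63e-07) and by 1.48 in PRA (SE 0.20, adjusted p = 1.18e-05). With P4 it was higher in PRB by 0.62 (SE 0.20, adjusted p = 0.0497), a call that 20 of 26 alternatives lost, the highest adjusted p being 0.160. Without PRB P4 replicate 3 that difference was 0.51 (adjusted p = 0.112), and the difference of responses was 0.67 in the full data (SE 0.29, adjusted p = 0.259).

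Grem1, which encodes the BMP antagonist gremlin, was near the bottom of the table. It was listed at 0.136, 0.0425, 0 and 0.122 FPKM in PRB P4, against 0, 0.00983, 0.0284 and 0 in PRB oil. It was listed at 0.0418, 0, 0.0832 and 0 FPKM in PRA P4, against 0.00985, 0, 0.0403 and 0.0569 in PRA oil. The groups overlapped, with 0 listed in 6 of the 16 libraries, and exact two-sided permutation tests of P4 against oil gave p = 0.143 in PRB and 0.914 in PRA.

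**Figure D2:**
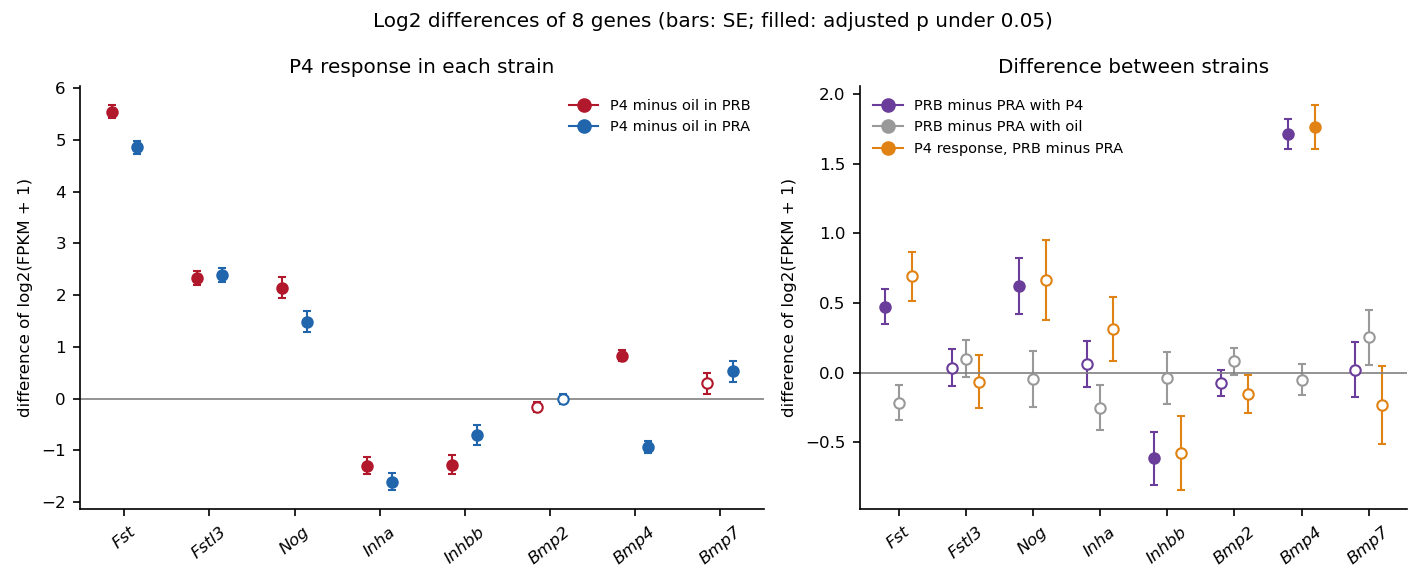
Log2 differences of the 8 tested genes with their SE, for P4 against oil in each strain and for the strain contrasts. Bmp4 stands at 0.83 in PRB and -0.93 in PRA, whereas Fst, Fstl3, Nog, Inha and Inhbb keep their sign in both strains.

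Between the strains, 4 of the 8 tested genes were called with P4 and 0 with oil. The count with P4 was 1 without PRA P4 replicate 4, and 2 without PRA P4 replicate 2 or without PRB P4 replicate 3. With P4, Bmp4, Fst and Nog were higher in PRB and Inhbb was lower, where 16% of all features were called, 7.75% higher and 8.29% lower. The P4 libraries of the strains did not overlap for 4 of the 8, where 20.2% of features had no overlap, and with oil they did so for 0, where 3.39% had none. With oil, limma called 0 of the 8, where 0.117% of features were called, 0.0389% higher and 0.0779% lower. At an unadjusted p under 0.05 it was also 0, where 5.21% of features passed. The difference of responses was called for 1 of the 8, Bmp4, where 1.47% of features were called higher and 0.811% lower, and 4 had an unadjusted p under 0.05, where 16.5% of features did. These contrasts share their P4 and oil libraries with the treatment contrasts above.

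Ratios within a library put binding proteins beside their ligands, and they are descriptions with no test. The sum of Fst and Fstl3 over that of Inhba and Inhbb was 65.7 ± 24.5 in PRB P4 and 1.38 ± 0.544 in PRB oil, and 29.7 ± 4.36 in PRA P4 and 1.27 ± 0.157 in PRA oil. Its libraries lay between 49.0 and 101 in PRB P4 and between 24.9 and 34.6 in PRA P4, without overlap. The value of 101 was that of PRB P4 replicate 3, and the next highest in that group was 62.1. Bmp4 over Nog was 3.85 ± 0.693 in PRB P4 and 14.0 ± 5.86 in PRB oil, and 1.84 ± 0.589 in PRA P4 and 13.1 ± 3.50 in PRA oil. This ratio was lower with P4 in both strains, although Bmp4 itself moved in opposite directions. Bmp4 over Bmp7 was 1.63 ± 0.754 in PRB P4 and 1.07 ± 0.288 in PRB oil, and 0.454 ± 0.0907 in PRA P4 and 1.33 ± 0.379 in PRA oil. PRB P4 replicate 3 was highest in this ratio at 2.74, and the other libraries of that group were at 1.29, 1.41 and 1.07. They overlapped the PRB oil libraries, which lay between 0.672 and 1.29.

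**Figure D3:**
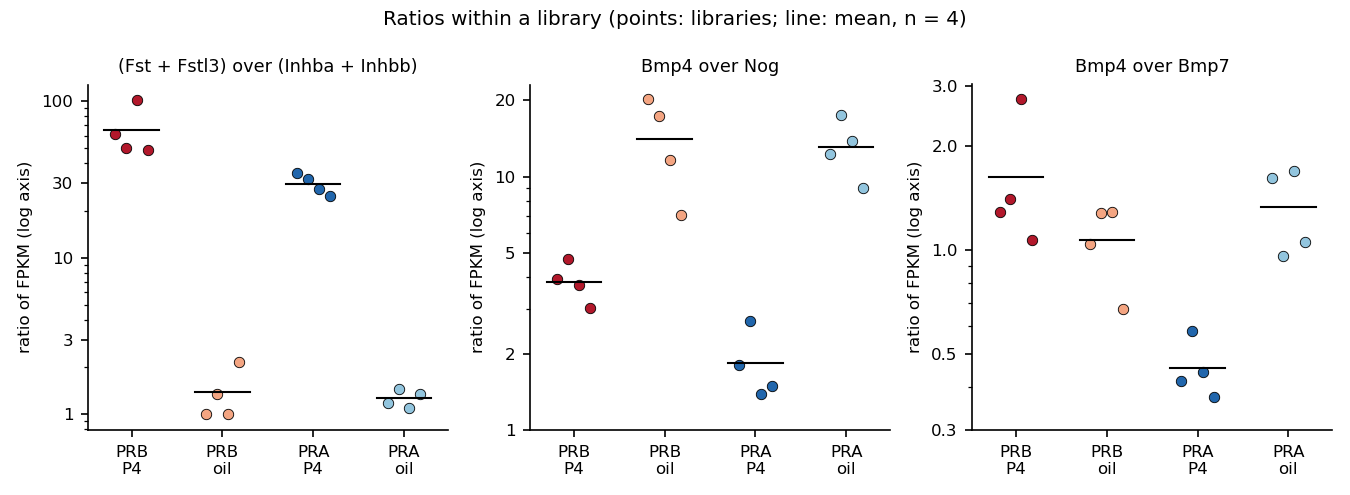
Ratios of FPKM within each library on log axes (points are libraries, lines are means, n = 4). PRB P4 replicate 3 alone reaches 101 in the ratio of Fst plus Fstl3 to Inhba plus Inhbb, where the next library is at 62.1. PRA P4 libraries have the lowest ratios of Bmp4 to Bmp7, between 0.374 and 0.583.

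Promoter windows were taken from RefSeq on mm10 (GRCm38), from 250 bases before to 50 after the start, and 6 of the 10 genes had one: Fstl3, Bmp4, Inha, Inhba, Inhbb and Grem1. Fst, Bmp2, Bmp7 and Nog are named only. The start used for Inha lay 532 bases downstream of the annotated start of the gene, so its window lay inside the gene. Both strands were searched for AGAACA, an arm of the element that steroid receptors such as the progesterone receptor bind, and for the palindromic progesterone receptor element, which can overlap it. AGAACA was in 6233 of 32851 windows (19.0%) and in 2 of the 6, and the palindrome in 156 windows (0.475%) and in 0 of the 6. Windows are shown for Fstl3, which rose in both strains, Inhbb, which fell in both, and Bmp4, which moved in opposite directions. Capitals mark the motif, which, with the start counted as base 0, begins at base -179 of Fstl3, on the minus strand of the window (printed as TGTTCT), and at base 33 of Inhbb. Fstl3 is at chr10:79777024-79777323 on the plus strand, Inhbb at chr1:119422199-119422498 and Bmp4 at chr14:46390620-46390919, both on the minus strand.
Fstl3: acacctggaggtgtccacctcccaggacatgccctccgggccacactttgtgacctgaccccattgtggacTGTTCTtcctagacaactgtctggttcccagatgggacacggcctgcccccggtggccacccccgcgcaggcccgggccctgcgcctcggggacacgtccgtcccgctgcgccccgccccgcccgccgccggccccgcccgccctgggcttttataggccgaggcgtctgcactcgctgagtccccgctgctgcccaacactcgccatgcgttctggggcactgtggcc
Inhbb: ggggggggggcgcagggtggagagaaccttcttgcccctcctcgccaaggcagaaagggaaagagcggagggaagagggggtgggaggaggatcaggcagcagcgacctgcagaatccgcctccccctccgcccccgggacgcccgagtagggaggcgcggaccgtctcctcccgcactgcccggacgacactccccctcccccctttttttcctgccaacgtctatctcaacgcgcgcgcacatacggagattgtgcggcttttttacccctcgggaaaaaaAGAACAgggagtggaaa
Bmp4: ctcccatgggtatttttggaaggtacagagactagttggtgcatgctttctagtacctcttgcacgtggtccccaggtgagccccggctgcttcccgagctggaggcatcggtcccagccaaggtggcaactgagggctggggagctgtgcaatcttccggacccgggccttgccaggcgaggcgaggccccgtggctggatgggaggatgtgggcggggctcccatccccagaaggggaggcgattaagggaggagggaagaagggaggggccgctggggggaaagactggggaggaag
A match is a description of the letters in the window, and no match in Bmp4 says only that these letters are not in it. The annotated genes are Bmp4 on chromosome 14 from 46383520 to 46390669 (minus strand), Fstl3 on chromosome 10 from 79777272 to 79782630 (plus strand), Inhbb on chromosome 1 from 119415465 to 119422248 (minus strand) and Fst on chromosome 13 from 114452290 to 114458951 (minus strand), in GENCODE M21.

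Other genes of the pathway were read from lists by role, which overlap in a few genes such as Bambi. Their counts stand beside 36.2% of all features higher and 32.9% lower in PRB, and 36.6% higher and 33.2% lower in PRA. Of 13 tested other ligands of the family, 3 rose and 3 fell in PRB, and 3 rose and 4 fell in PRA, with a median log2 difference of -0.05 in PRB and 0.12 in PRA. Gdf15, a stress-induced member, rose by 1.23 in PRB and by 2.21 in PRA, and Tgfb2 fell by 0.53 in PRB and by 0.51 in PRA. Gdf7, a BMP-like ligand, had a log2 difference of -0.05 in PRB (adjusted p = 0.859) and of 1.23 in PRA (adjusted p = 0.000164). Its difference of responses of -1.28 (SE 0.31, adjusted p = 0.049) was lost under 17 of 26 alternatives.

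Of 15 tested receptors and co-receptors, 6 rose and 5 fell in PRB, and 4 rose and 5 fell in PRA, with medians of -0.05 and -0.00. Acvrl1, a type I receptor for BMP9 and BMP10 that is best known from endothelium, averaged 74.7 ± 10.8 FPKM in PRB P4 and 20.4 ± 1.50 in PRB oil, with 45.8 ± 7.37 FPKM in PRA P4 and 19.3 ± 1.60 in PRA oil. It rose by 1.82 in PRB (SE 0.11, adjusted p = 5.00e-09) and by 1.20 in PRA (SE 0.11, adjusted p = 3.20e-07), and was higher in PRB than in PRA with P4 by 0.70 (adjusted p = 0.00143). Tgfbr3, a co-receptor that also binds inhibin, rose by 1.46 in PRB and by 1.05 in PRA. Acvr2b, a type II activin receptor, fell by 0.88 in PRB and by 1.06 in PRA.

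Of 14 tested other extracellular antagonists and modulators, 3 rose and 5 fell in PRB, and 2 rose and 6 fell in PRA, with medians of -0.13 and -0.19. For 3 of the 14 the difference of responses was called, where 2.28% of all features were called. Bambi, a decoy receptor without a kinase domain, averaged 15.4 ± 1.21 FPKM in PRB P4 and 10.2 ± 1.03 in PRB oil, with 23.1 ± 0.650 FPKM in PRA P4 and 9.17 ± 0.908 in PRA oil. It rose in both strains, and its difference of responses was -0.69 (SE 0.11, adjusted p = 0.0049). Chrd, which encodes the BMP antagonist chordin, averaged 18.7 ± 2.41 FPKM in PRB P4 and 12.0 ± 1.82 in PRB oil, with 9.30 ± 1.32 FPKM in PRA P4 and 10.9 ± 1.01 in PRA oil. Its difference of responses was 0.81 (SE 0.17, adjusted p = 0.0254), a call lost under 6 of 26 alternatives, and its PRA value of -0.21 (adjusted p = 0.128) was not called. Fstl1, a follistatin-like glycoprotein, averaged 74.3 ± 5.83 FPKM in PRB P4 and 82.4 ± 2.72 in PRB oil, with 109 ± 14.3 FPKM in PRA P4 and 77.9 ± 3.45 in PRA oil, and its difference of responses was -0.62 (SE 0.11, adjusted p = 0.0124).

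Of 14 SMADs and regulators of SMADs, 2 rose and 6 fell in PRB, where 69.1% of all features were called, and 2 rose and 7 fell in PRA, where 69.8% were, with medians of -0.12 and -0.21. Tgif1, a repressor of SMAD-driven transcription, fell by 1.90 in PRB and by 1.67 in PRA, and Smad3, which carries activin and TGF-beta signals, fell by 0.69 in PRB and by 0.68 in PRA.

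Of 18 genes known to respond to BMPs or activins, 3 rose and 9 fell in PRB, and 3 rose and 6 fell in PRA, with medians of -0.38 and -0.24. Without PRB P4 replicate 3 the PRB count was 6 risen and 8 fallen. Msx2, a homeobox target of BMPs, averaged 4.62 ± 2.51 FPKM in PRB P4 and 24.97 ± 6.14 in PRB oil, with 10.9 ± 2.30 FPKM in PRA P4 and 28.0 ± 10.01 in PRA oil. It fell by 2.32 in PRB (SE 0.33, adjusted p = 1.76e-05) and by 1.25 in PRA (SE 0.33, adjusted p = 0.00343). Id1, a direct BMP target in many cells, was measured at 226, 224, 106 and 229 FPKM in PRB P4, against 131, 128, 144 and 115 in PRB oil. PRB P4 replicate 3 was below every other library of its group and below every oil library of its strain. Id1 rose in PRB by 0.54 (adjusted p = 0.0206), and by 0.81 without that library. The PRB call was lost under 6 of 26 alternatives, at an adjusted p of at most 0.277. Quantile normalization lost the PRA call (adjusted p = 0.126). In PRA, Id1 rose by 0.62 (adjusted p = 0.00958), with 200.1, 241, 219.6 and 222 FPKM in PRA P4, against 144, 129.6, 152 and 148 in PRA oil. Id4 fell by 1.12 in PRB and by 0.98 in PRA.

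**Figure D4:**
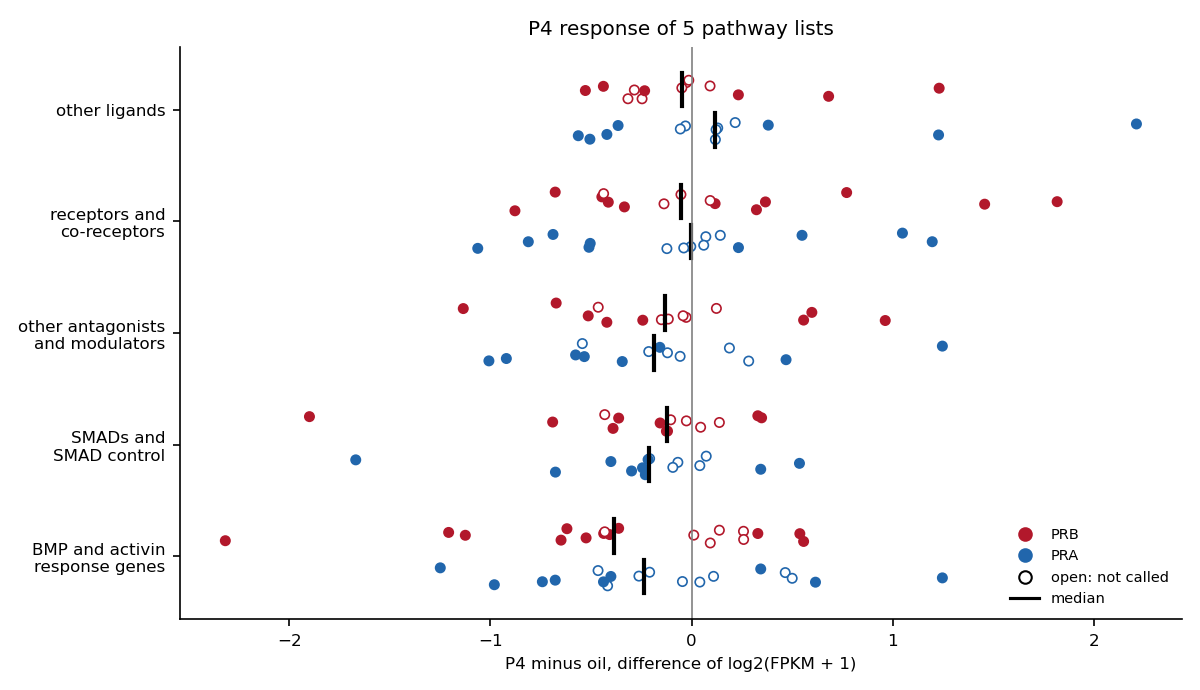
Log2 differences of P4 against oil for the tested genes of each pathway list in each strain. Genes in both directions occur in every list, among them Acvrl1 at 1.82 in PRB and 1.20 in PRA and Msx2 at -2.32 in PRB and -1.25 in PRA.

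Genes with the most similar pattern were ranked by the root mean square of the difference from the member's profile, on the log2 scale and centred per gene, over the 16 libraries. Among the nearest to Bmp4 were Zfp964 (0.335) and S1pr1 (0.336). Nearest to Fst were Hsd11b2 (0.452), Adamtsl2 (0.508) and Lrp2 (0.556), and nearest to Fstl3 was Srm (0.0977). Otud1 (0.143) was nearest to Inha, Ston2 (0.202) to Inhbb and Fut4 (0.217) to Nog. These libraries share treatment, strain and scaling, so the values are descriptions.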

How the data were processed

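RNA was extracted as total RNA from whole uterus, per the labels' protocols. The authors deposited FPKM values per feature and library, and TopHat2 2.0.4, Cufflinks 2.0.2, Cuffdiff and mm10 are named in the submitters' processing notes without their roles. The sources used here give neither the strandedness nor any scaling of libraries. A scaling shared by a whole library would shift all its values alike.

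Values were compared as log2(FPKM + 1), which understates changes of weakly expressed genes, with limma 3.58.1 in R 4.3.3. One model held the 4 group means of all 16 libraries, two-sided moderated tests used an intensity trend, and Benjamini-Hochberg adjustment ran over the 15408 features averaging 1 FPKM or more, at 0.05. Contrasts, 5 in all, set P4 against oil per strain, set PRB against PRA per treatment, and took the difference of responses. The procedure was tested on simulated data with independent noise and a small set of features changed, in PRB P4 only. P4 called most features here, so that test does not give the error rate in these data. SciPy 1.17.1 gave exact permutation tests for genes under the filter, and p-values measure the spread between these 16 libraries.

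All 10 members are named, with the called genes of the pathway lists open to naming, and the epithelial, stromal and ovarian marker lists. Values of some genes are not reported here. Members and lists were chosen with earlier results of these data known. Other filters, pseudocounts, scalings and left-out libraries made up 25 alternative analyses, with 1 more chosen after seeing the data. The labels name no pairing by replicate number, so the main model held none. At most 135 of 15408 values were identical between any 2 libraries.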

Additional observations from a re-analysis of the deposited data

Results flagged for a closer look

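In the groups of 4 libraries, 13 of the 224 sets of 56 genes held a library far from the other 3, where about 1 in 20 is flagged by chance. PRA P4 replicate 3 was high for Fstl3 (56.7 FPKM, others 41.2 to 43.6), Skil (13.0 FPKM, others 11.7 to 11.9) and Tgfb2 (6.16 FPKM, others 3.80 to 4.15), and low for Id2 (141 FPKM, others 163 to 165). PRB P4 replicate 3 was low for Id1 (106 FPKM, others 224 to 229) and Tgfbi (114 FPKM, others 144 to 148), and high for Acvr1b (23.0 FPKM, others 15.1 to 15.4). PRB oil replicate 3 was low for Smad3 (29.1 FPKM, others 32.7 to 33.4). Single libraries were also apart for Acvr1b in PRB oil (27.5 FPKM in replicate 2, others 21.7 to 22.5), Chrdl1 in PRB P4 (10.3 FPKM in replicate 1, others 4.98 to 5.67) and Tgfb1 in PRB oil (7.96 FPKM in replicate 4, others 6.53 to 6.77). In PRA P4, Crim1 was low in replicate 4 (9.36 FPKM, others 10.3 to 10.4) and Rgmb in replicate 1 (38.6 FPKM, others 46.0 to 46.5).

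The P4 response differed between the strains, PRB minus PRA, for Bmp4 (1.76, limma, adjusted p = 0.000189), Chrd (0.81, adjusted p = 0.0254), Bambi (-0.69, adjusted p = 0.0049), Fstl1 (-0.62, adjusted p = 0.0124) and Gdf7 (-1.28, adjusted p = 0.049). The Gdf7 call was lost under 17 of 26 alternatives and the Chrd call under 6. Of all tested features, 2.28% were called in this contrast.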

How the results depend on the processing

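Of 40 member values over the 5 contrasts, 34 kept their side of the threshold under every alternative that gave a value. No called value changed sign, while 11 that were not called did: Bmp2 with P4 in PRB and in PRA, Bmp7, Fstl3 and Inha between strains with P4, Bmp2, Bmp4, Fstl3, Inhbb and Nog between strains with oil, and Fstl3 for the difference of responses. Inhbb has no value with a filter at 5 FPKM, which its mean of 4.57 does not reach. Members called between PRB and PRA with P4 numbered 4 of 8 tested. They numbered 2 of 8 with only the libraries of the contrast, with a pseudocount of 0.1 and with quantile normalization. They numbered 2 of 7 with a filter at 5 FPKM. With no filter they numbered 2 of 10, where 10.1% of features were called. Without PRB P4 replicate 3 and no filter (added after seeing the data) they also numbered 2 of 10. Leaving out 1 library gave 1 to 4, with 1 without PRA P4 replicate 4, and 2 without PRA P4 replicate 2 or PRB P4 replicate 3. The same ranges were 1 to 2 for the difference of responses (2 without PRA oil replicate 2 or 4), 6 to 7 for P4 in PRB and in PRA, and 0 with oil. For P4 against oil without PRB P4 replicate 3 and no filter, 8 of 10 tested members were called in PRB and 8 of 10 in PRA. With no filter and all libraries, 53.1% of features were called in PRB and 53.4% in PRA. The cause was not tested.

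Features called for the difference of responses numbered 352, and 155 to 494 without 1 library (155 without PRA P4 replicate 4 and 494 without PRB P4 replicate 3). With oil they numbered 18, and 33 with no filter, 6 with only the libraries of the contrast, 42 without PRB P4 replicate 3 and no filter, and 8 to 29 without 1 library (29 without PRB P4 replicate 3). With P4 the strains differed in 2471, in 1640 with only the libraries of the contrast, and in 1412 to 2612 without 1 library (1548 without PRA P4 replicate 2 and 1412 without PRA P4 replicate 4). P4 called 10180 to 10663 features in PRB and 10186 to 11111 in PRA without 1 library. Without PRB P4 replicate 3 and no filter, P4 called 12423 in PRB and 13018 in PRA, and 501 were called for the difference of responses. The Gdf9 response in PRB was -0.23, and 0.0072 with quantile normalization.

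Deviations from group means of same-numbered libraries correlated at r from -0.229 to 0.312, with r over 0.1 in 6 of 24 pairs. A pair with different numbers, PRA oil replicate 1 and PRB oil replicate 2, reached 0.338. Whether the numbers mark pairs was not settled by these values. The replicate block gave 467 features for the difference of responses and 3 members between strains with P4, where Inhbb was lost. FPKM without counts leaves the precision of low genes such as Grem1 unknown.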

Other observations

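Bmp3, a BMP family member that opposes other BMPs, was under the filter on low values and was singled out after its values were seen. It was measured at 0.154, 0.221, 0.176 and 0.509 FPKM in PRB P4, against 1.17, 0.659, 0.945 and 0.990 in PRB oil. It was measured at 0.552, 0.373, 0.321 and 0.159 FPKM in PRA P4, against 1.08, 0.949, 0.964 and 1.01 in PRA oil. All P4 libraries lay below all oil libraries of their strain, and no test was made. Amh, the anti-Müllerian hormone gene, was measured at 1.44, 1.32, 0.629 and 2.04 FPKM in PRB P4, against 0.584, 0.618, 0.568 and 0.849 in PRB oil. The PRA uteri gave 1.23, 0.947, 1.66 and 1.48 FPKM in PRA P4, against 0.551, 0.605, 0.582 and 0.708 in PRA oil. Its P4 libraries lay above the oil libraries in PRA and overlapped them in PRB. That overlap came from PRB P4 replicate 3 alone (0.629 FPKM). The other PRB P4 libraries, at 1.32 to 2.04 FPKM, lay above all PRB oil libraries.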
